A study of Rattus norvegicus with 21 samples.

Results

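The genes described here take up, bind, activate and burn fatty acids in the heart, together with known targets of the PPAR receptors. They were chosen by symbol, and 44 of the 47 symbols listed had a row among the 17085 of the count table. All 44 passed the filter on low counts that left 11742 genes to be tested. Fabp5, Plin5 and Acot1 had no row under their symbol and were not analysed here.

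The libraries were bulk RNA sequencing of rat heart tissue (Sprague Dawley) after closure of the left anterior descending coronary artery, in 7 groups of 3. In MI1h_R the artery was reopened after 1 h and followed by 23 h of reperfusion, in MI6h_R after 6 h followed by 18 h, and in MI24h it stayed closed for 24 h. MI1h_F, MI6h_F and MI24h_F had the same 3 injuries and carry an added F in their titles. F is not spelled out there, although the design text speaks of pretreatment with fenofibrate, a drug that activates PPARα. Injured hearts were collected at 24 h. Sham hearts were the controls, and no Sham group carries F. The tissue label is infarct zone for every library, Sham included. Nothing in the labels says that the 3 libraries of a group came from separate rats, so p-values measure the spread between these libraries. Total counts ran from 12208041 to 18393795 per library, and Sham stood apart on the first principal component, with 52.4% of the variance.

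Fatty acids are the main fuel of the beating heart. They reach the cardiomyocyte from lipoproteins cleaved by lipoprotein lipase, enter through carriers such as CD36, are bound by FABP3, tied to coenzyme A by the ACSL enzymes and passed into the mitochondrion by the carnitine shuttle. β-oxidation then shortens them step by step and hands electrons to the electron transfer flavoprotein, while peroxisomes shorten the longest chains and lipid droplets store the surplus. PPARα, encoded by Ppara, is a nuclear receptor that binds fatty acids and turns on many of these genes, as the estrogen-related receptors also do.

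PPARs are known to bind DNA as partners of RXR at a direct repeat of a short core motif, and the estrogen-related receptors at a single extended core motif. The sequence 250 bases before to 50 bases after the start of each gene was searched on both strands, in RefSeq promoters of build GRCr8, which is not the build of the count tables. A promoter matched by symbol for 40 of the 47 listed genes. The direct repeat, searched as AGGNCA, any 1 base and AGGNCA again, was in 0 of these 40 and in 139 of all 33469 promoters (0.415%). The extended core, searched as TNAAGGTCA, was in 0 of 40 and in 401 of all promoters (1.2%). The bare core AGGTCA, which lies within the extended one and was added after the other searches gave no match, was in 9 of 40 (22.5%) and in 5415 of all promoters (16.2%). Among genes of the count table, Acadvl (very long chain acyl-CoA dehydrogenase, which opens β-oxidation of long chains) and Ucp3 (a mitochondrial uncoupling protein of muscle) held 2 cores each, and their 250 bases before the start are shown for that reason, 5′ to 3′ on the gene's strand, with the cores in capitals. The Acadvl stretch lies at chr10:55236706-55236955 on the minus strand and the Ucp3 stretch at chr1:164227660-164227909 on the plus strand.
Acadvl: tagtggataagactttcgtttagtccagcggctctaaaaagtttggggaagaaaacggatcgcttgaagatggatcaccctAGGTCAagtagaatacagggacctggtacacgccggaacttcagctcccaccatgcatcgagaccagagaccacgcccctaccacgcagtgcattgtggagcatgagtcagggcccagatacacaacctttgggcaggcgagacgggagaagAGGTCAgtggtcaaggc
Ucp3: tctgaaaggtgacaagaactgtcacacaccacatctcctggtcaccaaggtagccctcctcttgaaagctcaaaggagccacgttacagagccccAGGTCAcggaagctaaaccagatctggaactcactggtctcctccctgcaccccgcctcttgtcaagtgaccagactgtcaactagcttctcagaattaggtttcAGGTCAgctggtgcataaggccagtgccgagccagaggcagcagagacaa
A match of letters is a description of these windows and not a binding site.

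All 6 injured groups were compared with Sham to see how these genes stand a day after infarction. Nearly the whole pathway was lower in injured tissue. In MI24h against Sham, 5 genes rose and 34 fell of 44, with a median log2 fold change of -2.81, against 0.07 over all genes tested. A gene is called risen or fallen here at an edgeR adjusted p under 0.05, and of all genes tested 28% rose and 26.2% fell in this comparison. The numbers were 5 up and 36 down in MI1h_R (median -2.58; of all genes 25.4% rose and 24.1% fell) and 5 up and 35 down in MI6h_R (median -2.84; of all genes 29.3% rose and 28% fell). With F they were 5 up and 35 down in MI1h_F (median -2.26; of all genes 23.9% rose and 24.2% fell), 5 up and 35 down in MI6h_F (median -2.85; of all genes 28.6% rose and 28.5% fell), and 5 up and 34 down in MI24h_F (median -3.13; of all genes 30.7% rose and 30.1% fell). The same 34 genes fell in all 6 injured groups, and Cd36, Angptl4, Acsl4, Acsl5 and Plin2 rose in all 6. Acsl3, Acaa1a and Pex11a were called in none, Vldlr fell in 4 groups and Cpt1a in 1. All 6 comparisons use the same 3 Sham libraries.

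Cardiomyocyte markers moved with these genes. Of 16 markers in the table, such as troponins and myosins, 15 fell in MI24h (median -3.05), 14 in MI1h_R (median -2.68) and 15 in MI6h_R (median -3.68). Their summed level was 11390.4 to 15589.3 CPM in MI1h_R, 4733.95 to 11651.5 CPM in MI6h_R and 8859.34 to 13613.8 CPM in MI24h, against 62607.9 to 119209 CPM in Sham. CPM here are counts relative to library size after TMM scaling. In bulk tissue fewer cardiomyocytes and less RNA per cardiomyocyte cannot be told apart. Scaling every library to equal cardiomyocyte markers is an alternative that lifts the median of all genes to 2.96 in MI24h. Under it 14 of the 44 genes were higher and 4 lower there, with a median of 0.16. Of all genes tested 10432 were higher and 150 lower. The fall of the pathway against Sham thus depends on the scaling. Its median in MI24h lay below that of all genes under both scalings. The markers of neutrophils rose in 9 of 9 tested genes in each of these 3 groups, while fibroblast markers fell in 7 of 10 in MI1h_R, 9 in MI6h_R and 9 in MI24h. Of 7 endothelial markers tested 0 rose in any of these groups, and 2 fell in MI1h_R, 1 in MI6h_R and 2 in MI24h. Their medians were -0.41, 0.16 and -0.15. The part of these cell types in the results was not tested. Of 8 adipocyte markers 7 had a row and 2 could be tested. The untested ones Adipoq, Plin1, Retn, Ucp1 and Cidec were at 0 in Sham and had at most 3, 1, 5, 1 and 18 counts in any library. Group means of Cidec in injured tissue ran from 0.02 CPM in MI1h_R to 0.52 CPM in MI6h_R. Of the tested ones Cidea fell in MI1h_R, MI6h_R and MI24h against Sham, with a mean of 9.99 CPM in MI24h and 78.8 CPM in Sham, and Cfd was not called in MI24h, with 23.9 CPM in MI24h and 22.1 CPM in Sham. The list summed to 11.96 to 48.2 CPM in injured libraries and 74.1 to 150.1 CPM in Sham libraries.

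**Figure D1:**
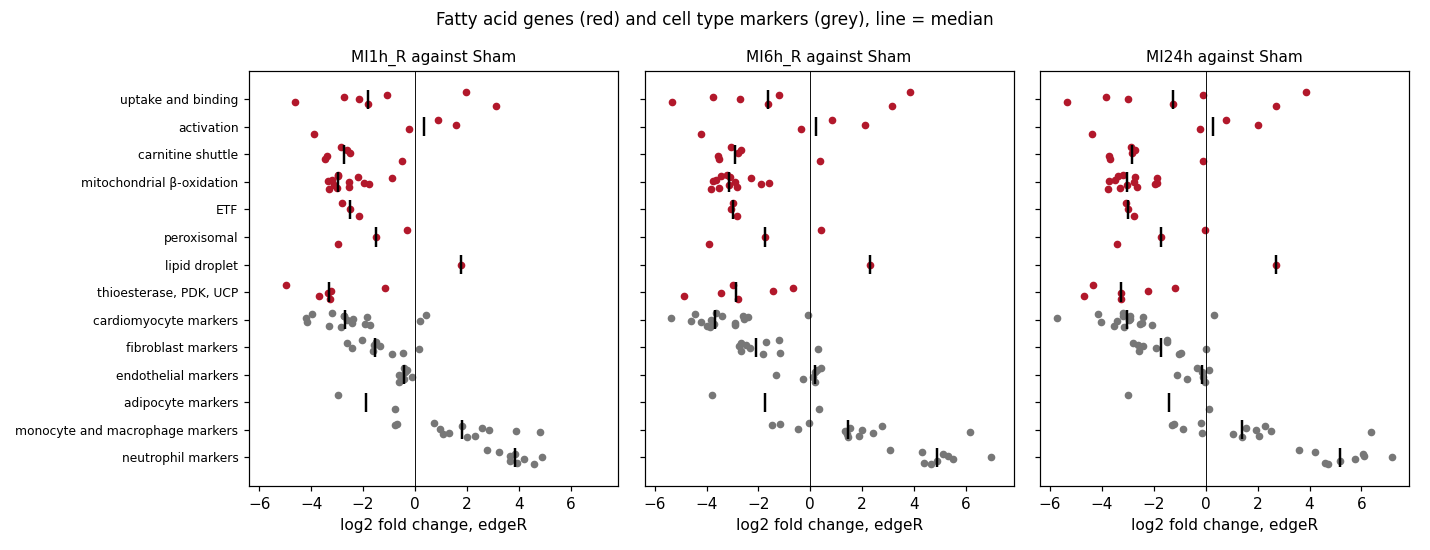
Log2 fold change (edgeR, horizontal axis) of fatty acid genes by role (red points) and of cell type markers (grey points) in the 3 injured groups without F, each against Sham, with the median of each group of genes as a line. The β-oxidation genes lie in the range of the cardiomyocyte markers (medians -3.04 and -3.05 in MI24h), while the neutrophil markers lie above 0. With libraries scaled to cardiomyocyte markers the β-oxidation median in MI24h would be -0.07, beside 2.96 over all genes.

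Uptake and binding genes moved in both directions. Of 7 genes, 2 rose and 4 fell in MI24h, and 2 rose and 5 fell in MI1h_R and in MI6h_R, whereas with libraries scaled to cardiomyocyte markers 3 or 4 rose and 1, Fabp3, fell in each of these groups. Fabp3 had 163, 155 and 137 CPM in MI1h_R, 46.4, 32.7 and 199.8 in MI6h_R, 87.2, 106 and 81.6 in MI24h, 172, 283 and 304 in MI1h_F, 184, 37 and 26.1 in MI6h_F and 16.6, 39.3 and 31.9 in MI24h_F, against 2760.5, 2285 and 6129 CPM in Sham. Every injured library lay below every Sham library for this gene, whose protein binds fatty acids inside cardiomyocytes. Its log2 fold change was -4.62 ± 0.75, -5.32 ± 0.78 and -5.35 ± 0.78 (SE, here and below) in MI1h_R, MI6h_R and MI24h. Fabp4 had 214, 197 and 178 CPM in MI1h_R, 172, 51.9 and 184 in MI6h_R, 73.4, 111 and 149 in MI24h, 244, 262 and 244 in MI1h_F, 196, 66 and 93.3 in MI6h_F and 48.5, 82.2 and 58.8 in MI24h_F, against 753, 828 and 1075 CPM in Sham. Fabp4, the binding protein of adipocytes and endothelium, fell by less, with -2.17 ± 0.41, -2.70 ± 0.42 and -3.00 ± 0.43, and was 0.26 in MI1h_R and 0.73 in MI6h_R when libraries were scaled to cardiomyocyte markers. Lpl had 933, 684 and 481 CPM in MI1h_R, 316, 199 and 521 in MI6h_R, 223, 356 and 398 in MI24h, 1019, 953 and 964 in MI1h_F, 892, 452 and 458 in MI6h_F and 396, 356 and 276 in MI24h_F, against 4293, 3529 and 6189 CPM in Sham. Lipoprotein lipase, which frees fatty acids from lipoproteins, was thus lower in every injured library than in any Sham library. Slc27a1 had 72.9, 71.4 and 49.5 CPM in MI1h_R, 76.7, 73.6 and 70.8 in MI6h_R, 101, 78.2 and 105 in MI24h, 70.5, 96.5 and 72.9 in MI1h_F, 80.1, 74.3 and 73.3 in MI6h_F and 62.9, 63.7 and 57.7 in MI24h_F, against 217, 231 and 233 CPM in Sham. Slc27a1 encodes the fatty acid transport protein FATP1, and its injured libraries lay below Sham, but with libraries scaled to cardiomyocyte markers its log2 fold change was 0.59 in MI1h_R, 2.04 in MI6h_R and 1.65 in MI24h, the last 2 called higher (edgeR adjusted p = 0.00045 and 0.00358).

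The uptake genes that rose were Cd36 and Angptl4. Cd36 had 60.8, 97.9 and 41.3 CPM in MI1h_R, 81, 95.1 and 29.6 in MI6h_R, 48.1, 48.7 and 54.7 in MI24h, 89, 64.5 and 59.1 in MI1h_F, 75.5, 162 and 165 in MI6h_F and 183, 123 and 118 in MI24h_F, against 1.42, 17.7 and 3.84 CPM in Sham. CD36 is the main fatty acid carrier of the cardiomyocyte membrane and also a scavenger receptor of macrophages and platelets. Its log2 fold change was 3.11 ± 0.62, 3.15 ± 0.62 and 2.71 ± 0.61 in MI1h_R, MI6h_R and MI24h. Without Sham library 31, which holds the most Cd36 of the Sham group, these values were 4.70, 4.77 and 4.30. That library was the highest of Sham for each of the 5 genes that rose in all groups, and it held 2817 CPM of monocyte and macrophage markers, against 483 and 538 CPM in the other 2, and 86.6 CPM of neutrophil markers, against 21.8 and 35.2 CPM. The part of this in the values was not tested. The row of Cd36 holds the same counts as that of RGD1565355 in every library, so the value cannot be given to either gene alone. In Sham its level was low, at 1.72 ± 2.08 TPM (SD, n = 3) and as few as 15 counts. The fold therefore rests on a low Sham level, and whether this row holds all reads of Cd36 was not tested. Angptl4 had 70.9, 74.6 and 70.0 CPM in MI1h_R, 275, 208 and 311 in MI6h_R, 330.4, 157 and 317 in MI24h, 46.1, 58.6 and 90.1 in MI1h_F, 60.2, 222 and 167 in MI6h_F and 266, 289.6 and 179 in MI24h_F, against 3.4, 38.8 and 12.9 CPM in Sham. ANGPTL4, a PPAR target, inhibits lipoprotein lipase. Its log2 fold change was 1.96 ± 0.58, 3.84 ± 0.62 and 3.86 ± 0.62, and without Sham library 31 the value in MI1h_R was 3.17. Monocyte and macrophage markers moved with them, with 6 of 13 up and 2 down in MI24h, 9 up and 2 down in MI1h_R and 7 up and 2 down in MI6h_R, and their part was not tested.

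**Figure D2:**
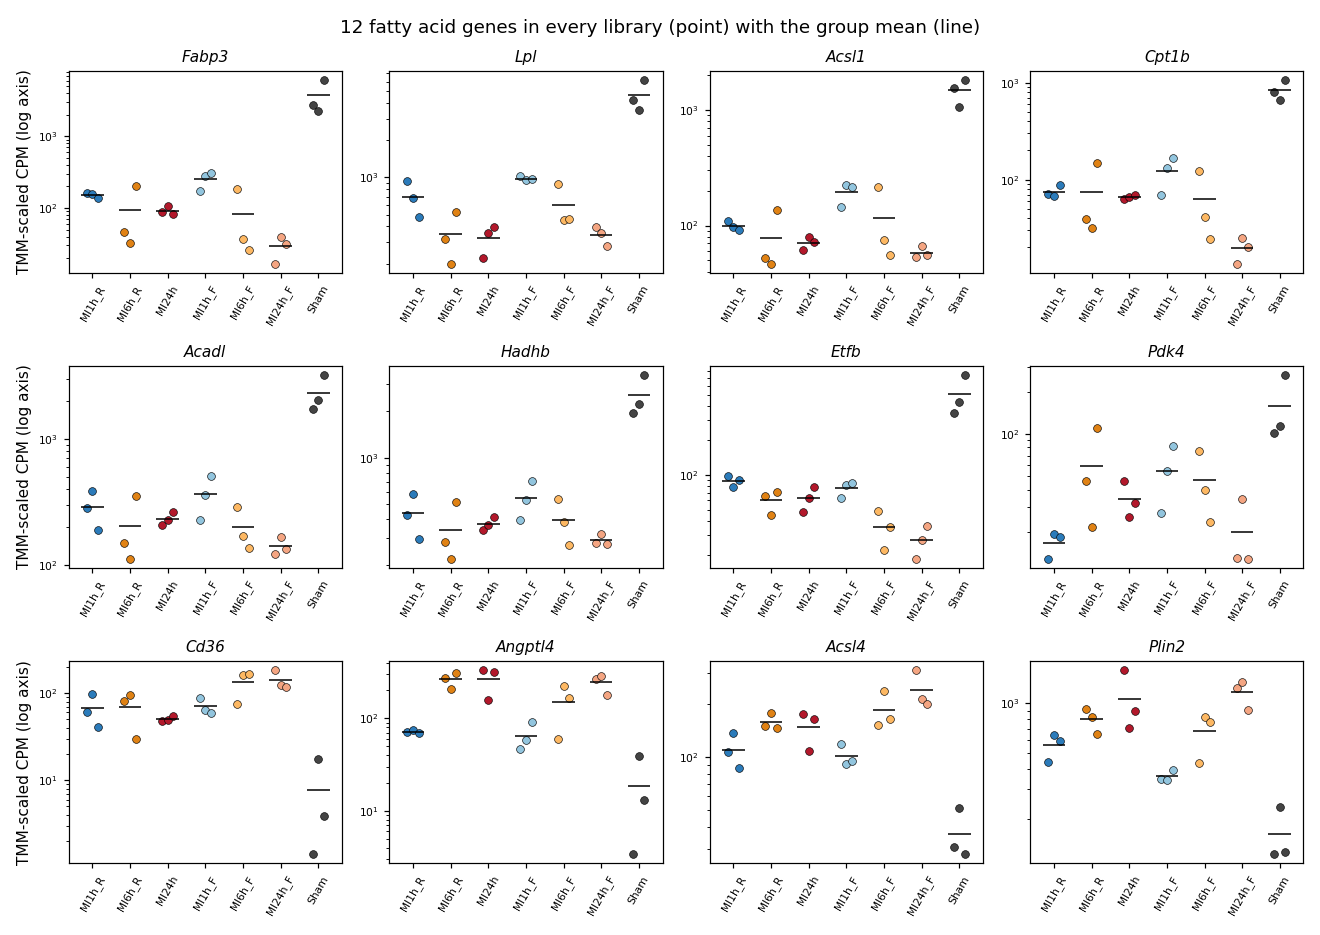
TMM-scaled CPM (log axis) of 12 fatty acid genes in each of the 21 libraries (points) by group, with group means as lines. Sham lies above the injured groups for Fabp3, Lpl, Acsl1, Cpt1b, Acadl, Hadhb and Etfb and below them for Cd36, Angptl4, Acsl4 and Plin2. With libraries scaled to cardiomyocyte markers the median of the β-oxidation genes in MI24h is -0.07, beside 2.96 over all genes.

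Of 4 acyl-CoA synthetases 2 rose and 1 fell in each injured group, and with libraries scaled to cardiomyocyte markers 3 rose and 0 or 1 fell. Acsl1 had 109, 96.9 and 91.7 CPM in MI1h_R, 52.2, 46.6 and 137 in MI6h_R, 61.3, 79.7 and 72.7 in MI24h, 145, 226 and 216 in MI1h_F, 215, 75.1 and 55.5 in MI6h_F and 53.1, 66.3 and 55.8 in MI24h_F, against 1537, 1071 and 1819.5 CPM in Sham. ACSL1 is the main synthetase of the heart, and all injured libraries were below all Sham libraries. Acsl4 had 106, 136 and 86.1 CPM in MI1h_R, 150.0, 177 and 146 in MI6h_R, 175, 108 and 163 in MI24h, 119, 90.4 and 94.5 in MI1h_F, 151, 235 and 165 in MI6h_F and 309.9, 213 and 199.5 in MI24h_F, against 30.5, 50.9 and 28 CPM in Sham. Acsl5 had 92.8, 113 and 74.7 CPM in MI1h_R, 100.1, 86.4 and 79.2 in MI6h_R, 77.4, 90.0 and 86.8 in MI24h, 89.2, 82.4 and 81.8 in MI1h_F, 95.4, 112 and 105 in MI6h_F and 100.1, 95.9 and 99.7 in MI24h_F, against 45.8, 62.8 and 41.1 CPM in Sham. Acsl4, which prefers arachidonic acid, and Acsl5 were both higher in every injured library than in any Sham library. Log2 fold changes in MI1h_R, MI6h_R and MI24h were -3.90 ± 0.46, -4.23 ± 0.47 and -4.37 ± 0.48 for Acsl1, 1.58 ± 0.26, 2.11 ± 0.27 and 2.02 ± 0.27 for Acsl4, and 0.91 ± 0.17, 0.83 ± 0.17 and 0.76 ± 0.17 for Acsl5. Acsl3, a synthetase of the endoplasmic reticulum and lipid droplets, was not called against Sham in any group. On the TPM scale, which allows levels of different genes to be compared, Acsl1 made up 27.5% ± 3.65, 20.7% ± 11.6 and 20.3% ± 2.92 of the summed TPM of the 4 synthetases in MI1h_R, MI6h_R and MI24h, 42.6% ± 7.57, 23.8% ± 14.7 and 13.5% ± 2.33 in MI1h_F, MI6h_F and MI24h_F, and 90.5% ± 4.09 in Sham (SD, n = 3 each). These shares are within a library, so they do not depend on how libraries are scaled. The mix of cells also differed, with cardiomyocyte markers lower and neutrophil markers higher than in Sham. Its part in the shares was not tested.

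The carnitine shuttle showed the same kind of split between isoforms. Cpt1b had 71.8, 67.4 and 87 CPM in MI1h_R, 39.2, 31.9 and 149.9 in MI6h_R, 62.9, 66.3 and 69.2 in MI24h, 68.9, 132 and 166 in MI1h_F, 122, 41.1 and 24.5 in MI6h_F and 13.5, 25.2 and 20.0 in MI24h_F, against 809, 657 and 1066 CPM in Sham. Cpt1a had 69.7, 73.2 and 79.4 CPM in MI1h_R, 134, 138 and 139 in MI6h_R, 111, 95.1 and 86 in MI24h, 83.6, 98 and 105 in MI1h_F, 85.5, 87.4 and 123 in MI6h_F and 103, 80.1 and 76.3 in MI24h_F, against 119, 77.7 and 119 CPM in Sham. CPT1B is the muscle form of the enzyme that commits fatty acids to the mitochondrion, and CPT1A the form of liver and of many other cells. Cpt1b was lower in every injured library than in Sham, while Cpt1a overlapped Sham in every group but MI6h_R, where it lay above Sham and was not called. The share of Cpt1a in the summed TPM of both was 38% ± 2.08, 59.2% ± 19.7 and 47.7% ± 4.41 in MI1h_R, MI6h_R and MI24h, 34.3% ± 7.83, 54.4% ± 22.8 and 73.1% ± 8.39 in MI1h_F, MI6h_F and MI24h_F, and 7.19% ± 1.05 in Sham (SD, n = 3 each). Every injured library lay above every Sham library in this share. The part of the cell mix in this share, and in that of Fabp3 below, was not tested. For Fabp3 in the sum of Fabp3 and Fabp4 the shares were 41.7% ± 0.399, 35.6% ± 15.1 and 44.4% ± 9.64 in the groups without F, 47.7% ± 7.14, 33.8% ± 13 and 29.5% ± 4.84 in MI1h_F, MI6h_F and MI24h_F, and 77.7% ± 6.1 in Sham (SD, n = 3 each).

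**Figure D3:**
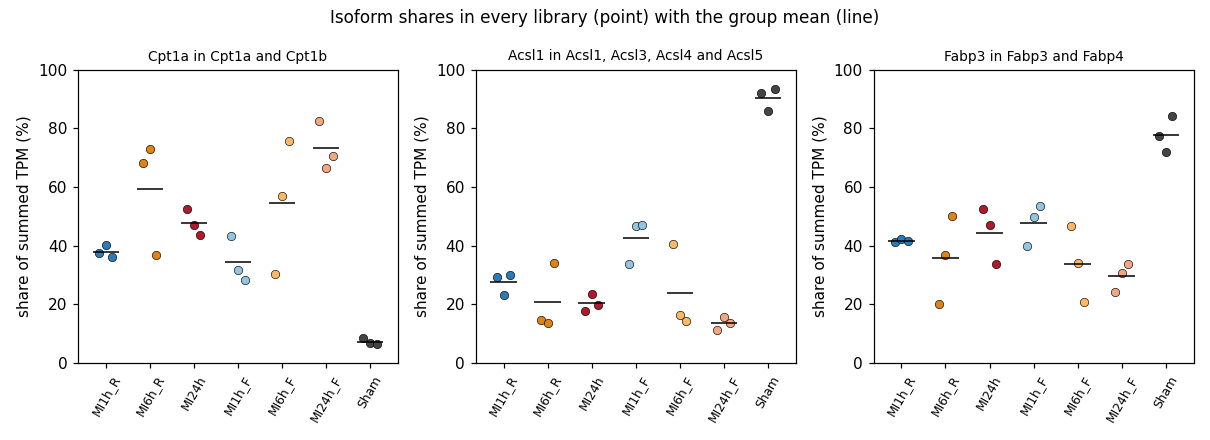
Share (%) of Cpt1a in Cpt1a and Cpt1b, of Acsl1 in 4 acyl-CoA synthetases and of Fabp3 in Fabp3 and Fabp4, from the deposited TPM, in each library (points) with group means (lines). Sham lies at 7.19%, 90.5% and 77.7% on average, and the injured libraries lie above Sham for Cpt1a and below it for Acsl1 and Fabp3. The part of the cell mix in these shares was not tested.

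The other shuttle genes fell in all injured groups, though with libraries scaled to cardiomyocyte markers 1 or 2 of the 6 shuttle genes rose and 0 or 1 fell. Slc25a20 had 69, 74.5 and 54.6 CPM in MI1h_R, 56.8, 44.8 and 63.3 in MI6h_R, 51.4, 48.6 and 57.2 in MI24h, 56.3, 69.1 and 73.8 in MI1h_F, 53, 42.4 and 42.7 in MI6h_F and 45.4, 42.6 and 44.9 in MI24h_F, against 297, 285 and 555 CPM in Sham. Crat had 159, 147 and 135 CPM in MI1h_R, 106, 96.9 and 219 in MI6h_R, 128, 145 and 131 in MI24h, 165, 249 and 237 in MI1h_F, 272, 118 and 102 in MI6h_F and 79.9, 114 and 109 in MI24h_F, against 788, 735 and 1154 CPM in Sham. SLC25A20 carries acylcarnitines across the inner membrane and CRAT, carnitine acetyltransferase, buffers acetyl-CoA. Slc25a20 had -2.52 ± 0.23, -2.79 ± 0.23 and -2.85 ± 0.23 in MI1h_R, MI6h_R and MI24h, and Crat -2.60 ± 0.35, -2.66 ± 0.35 and -2.73 ± 0.35. Both were slightly above Sham in MI24h with libraries scaled to cardiomyocyte markers, at 0.14 and 0.22, and neither was called there. Mean levels of Cpt2, which rebuilds acyl-CoA inside the mitochondrion, were 46.3 ± 6.79 CPM in MI1h_R, 41.6 ± 27.3 in MI6h_R and 37.4 ± 4.88 in MI24h, against 490.1 ± 159 in Sham (SD, n = 3 each). Mlycd encodes malonyl-CoA decarboxylase, which removes the inhibitor of CPT1, and had 48.4 ± 9.42, 43 ± 21.9 and 48.5 ± 4.62 CPM in MI1h_R, MI6h_R and MI24h, against 354 ± 107 in Sham (SD, n = 3 each).

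All 13 genes of mitochondrial β-oxidation fell in each of the 6 injured groups, though with libraries scaled to cardiomyocyte markers 0 to 5 of them were higher and 0 or 1 lower, depending on the group. The median log2 fold change was -2.96 in MI1h_R, -3.14 in MI6h_R and -3.04 in MI24h. Hadhb had 427, 581 and 295 CPM in MI1h_R, 281, 219.5 and 513 in MI6h_R, 339, 364 and 414 in MI24h, 395, 528 and 711 in MI1h_F, 535, 380.4 and 272 in MI6h_F and 280.5, 321 and 277 in MI24h_F, against 1958, 2222 and 3444 CPM in Sham. Acadl had 284, 387 and 189.7 CPM in MI1h_R, 148, 111 and 353 in MI6h_R, 206, 229 and 265 in MI24h, 228, 356 and 505 in MI1h_F, 290.1, 171 and 137 in MI6h_F and 121, 167 and 135 in MI24h_F, against 1720.3, 2044 and 3218 CPM in Sham. HADHB is a subunit of the trifunctional protein, which performs the later steps on long chains, and ACADL is the long chain acyl-CoA dehydrogenase. Log2 fold changes in MI1h_R, MI6h_R and MI24h were -2.55 ± 0.34, -2.91 ± 0.35 and -2.77 ± 0.35 for Hadhb and -3.02 ± 0.43, -3.51 ± 0.44 and -3.32 ± 0.43 for Acadl. The spread among the 13 was wide, and in MI24h it ran from -1.87 for Hadha, which encodes the partner subunit of HADHB and had 1.09 with libraries scaled to cardiomyocyte markers, to -3.76 for Acadm, the medium chain dehydrogenase. Acadvl had 146, 159.5 and 135 CPM in MI1h_R, 112, 79.4 and 169.7 in MI6h_R, 123, 131 and 155 in MI24h, 124, 165 and 199 in MI1h_F, 124, 78.7 and 67 in MI6h_F and 63.2, 84.3 and 77.3 in MI24h_F, against 640.2, 736 and 1210.3 CPM in Sham. Acadvl, whose promoter is shown above, was below Sham in every injured library. Eci2, an isomerase for unsaturated chains, shares all its counts with Eci3 and cannot be separated from it.

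The electron transfer flavoprotein takes electrons from every acyl-CoA dehydrogenase. Its subunit genes Etfa and Etfb fell in each injured group, as did Etfdh, the gene of the enzyme that receives its electrons. With libraries scaled to cardiomyocyte markers 0 to 2 of these 3 genes rose and 0 fell. Etfa had 145, 209 and 133 CPM in MI1h_R, 108, 77.3 and 123 in MI6h_R, 95.1, 104 and 122 in MI24h, 148, 145 and 203 in MI1h_F, 151, 158 and 114 in MI6h_F and 135, 128 and 101 in MI24h_F, against 561, 589 and 1043 CPM in Sham. Etfb had 98, 78.3 and 89.6 CPM in MI1h_R, 65.8, 45.2 and 70.7 in MI6h_R, 47.3, 63 and 78.8 in MI24h, 62.5, 81 and 85.4 in MI1h_F, 48.2, 22.1 and 35.3 in MI6h_F and 18.5, 27.2 and 35.7 in MI24h_F, against 348, 431 and 743 CPM in Sham. The 2 subunits had log2 fold changes of -2.17 ± 0.26, -2.83 ± 0.27 and -2.77 ± 0.26 (Etfa) and -2.52 ± 0.32, -3.07 ± 0.33 and -3.01 ± 0.33 (Etfb) in MI1h_R, MI6h_R and MI24h. Scaled to cardiomyocyte markers, none of the 3 genes was called in these groups, and Etfa was 0.31, 0.79 and 0.20.

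Of 4 peroxisomal genes 2 fell in every injured group, though with libraries scaled to cardiomyocyte markers 1 to 3 rose and 0 fell. Hsd17b4 had 92.6, 90.5 and 77.2 CPM in MI1h_R, 71.2, 66.6 and 84.9 in MI6h_R, 73.1, 70.7 and 82 in MI24h, 89, 101 and 129 in MI1h_F, 89.9, 90.9 and 88.6 in MI6h_F and 87.9, 99 and 87.1 in MI24h_F, against 167, 275 and 296 CPM in Sham. Hsd17b4, the gene of the D-bifunctional protein of peroxisomal β-oxidation, fell in all groups, with -1.50 ± 0.19, -1.73 ± 0.19 and -1.71 ± 0.19 in MI1h_R, MI6h_R and MI24h. Under the scaling to cardiomyocyte markers it had 0.90, 1.87 and 1.20, beside all-gene medians of 2.44, 3.70 and 2.96. Pex11a had 4.58, 6.82 and 3.62 CPM in MI1h_R, 7.46, 5.05 and 12 in MI6h_R, 6.41, 3.54 and 8.23 in MI24h, 3.52, 3.01 and 3.88 in MI1h_F, 5.64, 5.26 and 4.79 in MI6h_F and 4.69, 5.59 and 1.25 in MI24h_F, against 4.25, 6.64 and 7.57 CPM in Sham. Pex11a, a PPARα target in peroxisome division, had -0.30 ± 0.44, 0.41 ± 0.43 and -0.02 ± 0.44, none of them called, and these groups overlapped Sham. Acaa1a, the peroxisomal thiolase, was near the limit of detection, with at most 28 counts in any library and 0 in all 3 of MI1h_R, so no fold is given. Ehhadh, a classical PPARα target of liver, averaged 2.22 ± 0.53, 1.15 ± 0.631 and 1.58 ± 0.58 CPM in MI1h_R, MI6h_R and MI24h, against 17.2 ± 6.12 in Sham (SD, n = 3 each).

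The lipid droplet coat gene Plin2 rose in all 6 groups, also under every scaling tried. Plin2 had 443, 642 and 590.1 CPM in MI1h_R, 922, 822 and 653 in MI6h_R, 1581, 709 and 896 in MI24h, 349, 344 and 392 in MI1h_F, 436, 824 and 772 in MI6h_F and 1239, 1351 and 914 in MI24h_F, against 122, 235 and 126 CPM in Sham. The lowest injured library stood above the highest Sham library. The log2 fold change was 1.80 ± 0.32, 2.31 ± 0.32 and 2.72 ± 0.33 in MI1h_R, MI6h_R and MI24h.

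Of the thioesterases, pyruvate dehydrogenase kinases and uncoupling proteins, all 6 fell in every injured group, but with libraries scaled to cardiomyocyte markers 1 or 2 rose and 0 to 2 fell. Pdk2 had 72.1, 63.8 and 66 CPM in MI1h_R, 49.2, 35.1 and 106 in MI6h_R, 63.2, 72.6 and 81.3 in MI24h, 64.4, 113 and 144 in MI1h_F, 82.5, 52.9 and 32.2 in MI6h_F and 23.7, 37.1 and 28.8 in MI24h_F, against 639, 563 and 872 CPM in Sham. Pdk4 had 12.7, 19.1 and 18.2 CPM in MI1h_R, 46, 21.6 and 109 in MI6h_R, 46.3, 25.3 and 31.8 in MI24h, 27, 54.3 and 82.2 in MI1h_F, 76.1, 39.7 and 23.5 in MI6h_F and 12.9, 34.1 and 12.8 in MI24h_F, against 101, 113 and 264 CPM in Sham. These kinases shut off pyruvate dehydrogenase and so favour fat over glucose, and Pdk4 is a PPAR target. Pdk2 had -3.36 ± 0.40, -3.44 ± 0.40 and -3.26 ± 0.40 in MI1h_R, MI6h_R and MI24h, and for Pdk4 library 31 of MI6h_R lay within the range of Sham while the other injured libraries lay below it. Pdk4 had 1.91 in MI6h_R under the scaling to cardiomyocyte markers (edgeR adjusted p = 0.000379), below the all-gene median of 3.70 there. Ucp2 had 355, 292 and 288 CPM in MI1h_R, 498, 411 and 412 in MI6h_R, 321, 305 and 288 in MI24h, 294, 435 and 474 in MI1h_F, 326, 358 and 355 in MI6h_F and 309.7, 263 and 288 in MI24h_F, against 925, 405 and 753 CPM in Sham. Ucp2, an uncoupling protein also made by leukocytes, fell by 1.16, 0.66 and 1.19. Under the scaling to cardiomyocyte markers Ucp2 had 1.31, 3.07 and 1.78, beside all-gene medians of 2.44, 3.70 and 2.96. In MI6h_R it overlapped Sham, had 0.20 with library size alone and 0.62 on log2(TPM + 1), and lost its call without MI6h_R library 21 or 31 or Sham library 11 or 41. Ucp3, whose promoter is shown above, had 2 to 122 counts in injured libraries and 185 to 283 counts in Sham libraries.

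**Figure D4:**
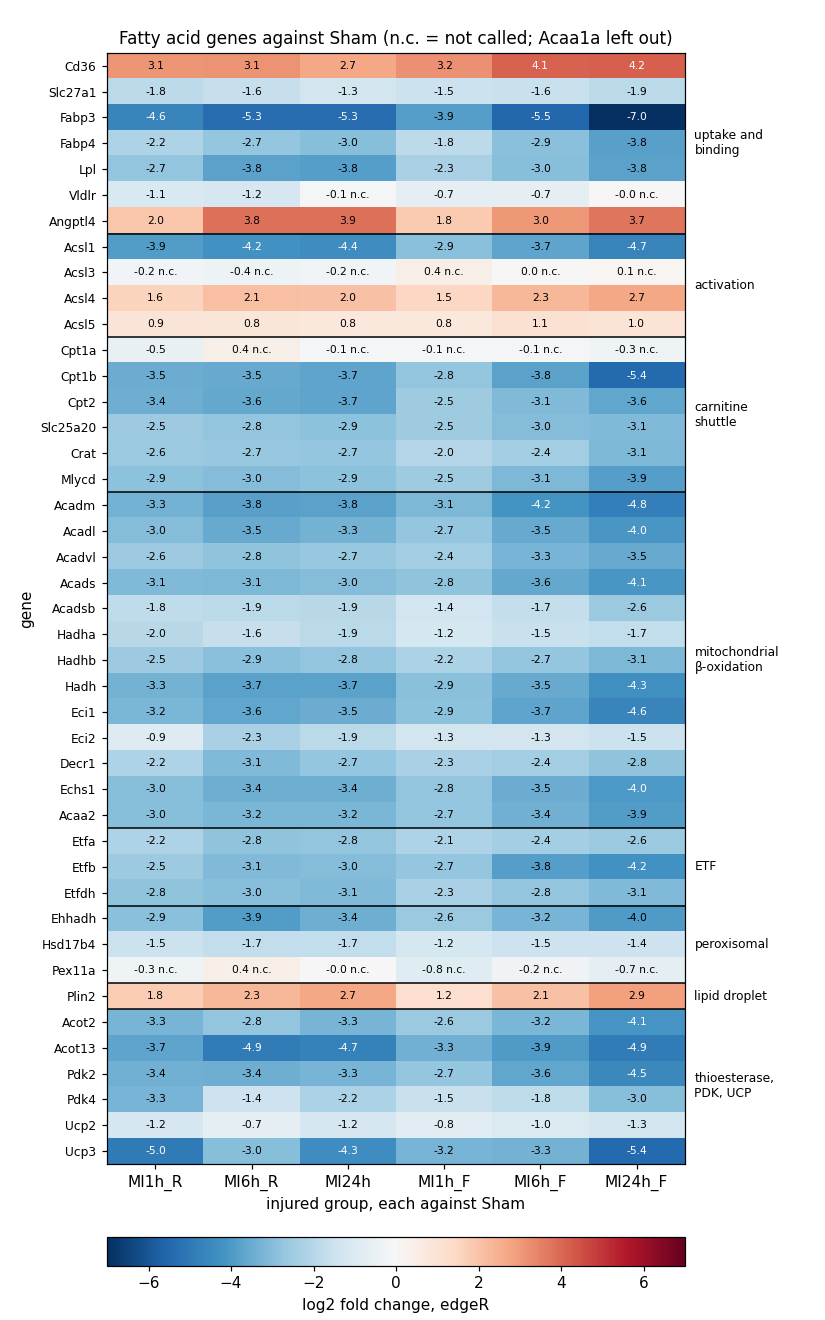
Log2 fold change (edgeR) of 43 fatty acid genes, grouped by role, in the 6 injured groups against Sham (blue lower, red higher, n.c. not called). Rows of Cd36, Angptl4, Acsl4, Acsl5 and Plin2 are red in all 6 columns and 34 rows are blue and called in all 6; with libraries scaled to cardiomyocyte markers 1 to 5 of the 44 genes are called lower.

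Other genes of lipid metabolism from a longer list fell more often than they rose. Of 56 tested, 11 rose and 37 fell in MI24h against Sham (median -1.56), 8 rose and 36 fell in MI1h_R (median -1.57), and 11 rose and 35 fell in MI6h_R. Among those that rose in MI24h were the desaturase gene Scd (3.93 ± 0.46, edgeR adjusted p = 1.91e-06) and Acly, which makes acetyl-CoA for lipid synthesis (1.71 ± 0.20, edgeR adjusted p = 2.01e-06). The 3 with the smallest p among those that fell were Cat, the catalase of peroxisomes (-2.12 ± 0.22, edgeR adjusted p = 6.68e-07), the lipid carrier gene Scp2 (-2.72 ± 0.28, edgeR adjusted p = 7.18e-07) and Acat1, a thiolase of ketone metabolism (-3.00 ± 0.31, edgeR adjusted p = 7.63e-07). With libraries scaled to cardiomyocyte markers Cat was 0.80 and Scp2 0.21 above Sham.

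Reperfusion was then compared with lasting closure. Few of the 44 genes differed. In MI1h_R against MI24h 0 rose and 1 fell (median 0.20; of all genes 1.51% rose and 2.81% fell), with 10 at an unadjusted p under 0.05, and DESeq2 called 2 up and 4 down. In MI6h_R against MI24h 0 rose and 1 fell (median -0.01; of all genes 0.111% rose and 0.392% fell). The gene was Vldlr in both, the receptor for very low density lipoprotein, which is known to rise under low oxygen. Vldlr had 50.6, 44.6 and 51.7 CPM in MI1h_R, 45.7, 38.6 and 51.5 in MI6h_R, 114, 83.9 and 90.3 in MI24h, 59.6, 70.1 and 66.6 in MI1h_F, 72.1, 76.9 and 42.5 in MI6h_F and 79.9, 118 and 106 in MI24h_F, against 117, 77.9 and 117 CPM in Sham. The libraries of MI1h_R and of MI6h_R lay below all 3 of MI24h, and those of MI24h lay within the range of Sham. The log2 fold change was -0.97 ± 0.22 in MI1h_R (edgeR adjusted p = 0.0174) and -1.08 ± 0.22 in MI6h_R (edgeR adjusted p = 0.0248). The first call was lost without MI1h_R library 11 or 31 or MI24h library 11, and 3 genes were called without MI1h_R library 41 and 4 without MI24h library 21. The second was lost without any 1 library of the 6 except MI24h library 21. Both were lost with libraries scaled to cardiomyocyte markers.

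Among the other lipid genes 3 of 56 fell in MI1h_R against MI24h and 0 rose. They were G0s2, an inhibitor of the lipase that opens lipid droplets (-1.39 ± 0.34, edgeR adjusted p = 0.0258), Pdk1, a kinase gene switched on by low oxygen (-1.01 ± 0.25, edgeR adjusted p = 0.0294), and Dgat2, which makes triglycerides (-1.61 ± 0.45, edgeR adjusted p = 0.0488). Pdk1 was below Sham in both groups, with means of 48.8 CPM in MI1h_R and 97.9 CPM in MI24h, against 276 CPM in Sham. Without MI24h library 11 Dgat2 had -0.78, and all 3 lost their call without MI1h_R library 11 or 31 or MI24h library 11 or 41.

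Early against late reperfusion separated 2 genes. In MI1h_R against MI6h_R 1 rose and 1 fell (median 0.16; of all genes 1.26% rose and 1.15% fell). Eci2 had 30.5, 36.4 and 19.2 CPM in MI1h_R, 12.8, 8.49 and 11.6 in MI6h_R, 9.11, 17.4 and 17.1 in MI24h, 23, 23.2 and 20.4 in MI1h_F, 26.8, 20.2 and 19.9 in MI6h_F and 20.7, 16.5 and 20.0 in MI24h_F, against 32.9, 62.9 and 64.9 CPM in Sham. Eci2 was 1.39 ± 0.29 (edgeR adjusted p = 0.0223) and Cpt1a -0.89 ± 0.18 (edgeR adjusted p = 0.0211). For Cpt1a the 3 libraries of MI1h_R lay below the 3 of MI6h_R. Both calls were lost without any 1 of the 5 libraries other than MI1h_R library 41, without which 3 genes were called. With libraries scaled to cardiomyocyte markers 0 of the fatty acid genes rose and 12 fell, with a median of -0.88. Of all genes tested 15 rose and 5097 fell there, with a median of -1.23. In MI6h_R library 31 stood above the other 2 for Fabp3, Acsl1, Cpt1b, Cpt2 and Hadhb, and its cardiomyocyte markers summed to 11652 CPM, against 7014 and 4734 CPM in libraries 11 and 21. The part of this in the result was not tested.

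Of the 3 comparisons within the groups with F, early reperfusion against lasting closure is the one in which edgeR called any of these genes. In MI1h_F against MI24h_F 21 of the 44 genes rose and 3 fell (median 1.18; of all genes 8.87% rose and 6.74% fell). The 21 were 3 of 7 uptake and binding genes, Acsl1, 4 of 6 shuttle genes, 9 of 13 β-oxidation genes, 2 of 3 flavoprotein genes, Acot13 and Pdk2. Of the 3 with the smallest p, Pdk2 was 1.84 ± 0.38 (edgeR adjusted p = 0.00592), Fabp4 1.98 ± 0.41 (edgeR adjusted p = 0.00592) and Etfb 1.49 ± 0.32 (edgeR adjusted p = 0.00658). The 3 that fell were Plin2 at -1.69 ± 0.32 (edgeR adjusted p = 0.00351), Acsl4 at -1.25 ± 0.26 (edgeR adjusted p = 0.00592) and Angptl4 at -1.92 ± 0.56 (edgeR adjusted p = 0.029). Cardiomyocyte markers moved with them, as 13 of 16 rose (median 1.85), and 7 of 9 neutrophil markers fell (median -2.24). Fibroblast markers rose in 6 of 10 (median 0.92), and 3 of the 13 markers of monocytes and macrophages rose, while 1 fell. With libraries scaled to cardiomyocyte markers the counts turned to 1 up and 19 down, beside an all-gene median of -1.90. The count of 24 called genes was 9 without MI24h_F library 1, 13 without MI24h_F library 4, 11 without MI1h_F library 4 and 10 without MI1h_F library 5. Without MI1h_F library 1, 4 or 5 or MI24h_F library 1 or 2 Angptl4 lost its call. Of the other lipid genes 17 of 56 rose and 6 fell.

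In MI6h_F against MI24h_F edgeR and DESeq2 called 0 of the 44 (median 0.50, 14 at an unadjusted p under 0.05; of all genes 0.145% rose and 0.341% fell). The smallest p belonged to Vldlr, -0.67 ± 0.22 (edgeR adjusted p = 0.246), and Cpt1b, 1.67 ± 0.55 (edgeR adjusted p = 0.253). In MI1h_F against MI6h_F edgeR and DESeq2 also called 0 (median 0.48, 14 at an unadjusted p under 0.05; of all genes 0% rose and 0% fell), with Etfb at 1.12 ± 0.31 (edgeR adjusted p = 0.239) and Acsl4 at -0.86 ± 0.26 (edgeR adjusted p = 0.249). Without MI6h_F library 1 edgeR called 4. That library stood above the other 2 of its group for Fabp3, Acsl1, Cpt1b and Crat and its cardiomyocyte markers summed to 10493 CPM, against 4603 and 3874 CPM in libraries 2 and 4. With libraries scaled to those markers 0 of the 44 genes rose and 16 fell in MI1h_F against MI6h_F, with a median of -0.91. Of all genes tested 4 rose and 8310 fell there, with a median of -1.47.

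F was then compared with no F within each injury. Libraries with F carry replicate numbers of their own. Under lasting closure 0 rose and 5 fell in MI24h_F against MI24h (median -0.47; of all genes 5.19% rose and 7.78% fell). They were Slc27a1, Cpt1b, Acads, Etfb and Pdk2. The 3 with the smallest p were Slc27a1 at -0.62 ± 0.16 (edgeR adjusted p = 0.0169), Etfb at -1.21 ± 0.31 (edgeR adjusted p = 0.0181) and Pdk2 at -1.28 ± 0.37 (edgeR adjusted p = 0.0328). For all 3 the libraries of MI24h_F lay below those of MI24h. Cardiomyocyte markers moved with them, with 6 of 16 down (median -1.34). Scaled to those markers 9 of the 44 genes rose and 0 fell, with a median of 0.64. Of all genes tested 2914 rose and 5 fell under that scaling, with a median of 1.07. The count of 5 of the 44 genes in the main fit was 0 without MI24h library 41 or MI24h_F library 1. It was 1 without MI24h library 11 or MI24h_F library 4, and 2 without MI24h library 21 or MI24h_F library 2. DESeq2 called 2 up and 8 down, and a fit to only the groups compared called 1 up and 11 down. Cd36 had 3 libraries of MI24h_F above 3 of MI24h and was not called.

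After early reperfusion edgeR called 0 of the 44 genes in MI1h_F against MI1h_R, with 5 at an unadjusted p under 0.05 and 1 up in DESeq2 (median 0.34; of all genes 0.0255% rose and 0.0511% fell). Acsl3 had 23.5, 23.9 and 20.8 CPM in MI1h_R, 23.7, 17.8 and 19.3 in MI6h_R, 19.7, 23 and 25.2 in MI24h, 36.9, 39.3 and 27.8 in MI1h_F, 33.2, 21.6 and 26.3 in MI6h_F and 25, 29.7 and 32.5 in MI24h_F, against 24.7, 26.4 and 27.8 CPM in Sham. Acsl3 had 0.61 ± 0.18 (edgeR adjusted p = 0.142) and Pdk4 1.71 ± 0.58 (edgeR adjusted p = 0.178). For both genes all 3 libraries of MI1h_F lay above those of MI1h_R. After late reperfusion 1 rose and 0 fell in MI6h_F against MI6h_R (median -0.05; of all genes 3.89% rose and 5.65% fell), which was Eci2 at 1.02 ± 0.29 (edgeR adjusted p = 0.0331). The call was lost without MI6h_F library 1 or 2, without any 1 library of MI6h_R, and with libraries scaled to cardiomyocyte markers, and 3 genes were called without MI6h_F library 4.

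**Figure D5:**
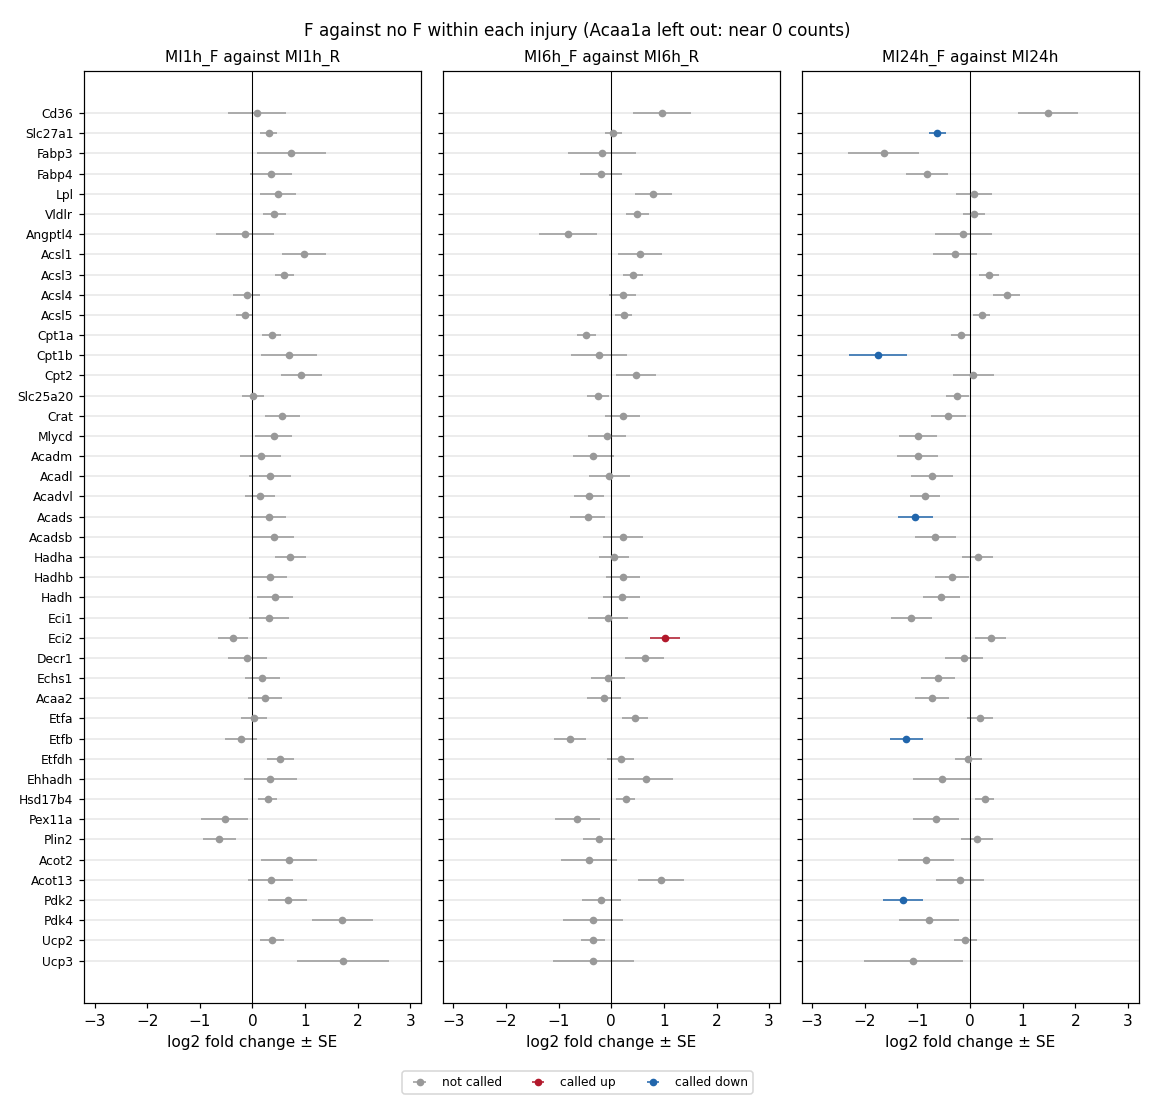
Log2 fold change (points) with its SE (bars) of 43 fatty acid genes for F against no F within each of the 3 injuries (edgeR). Under lasting closure 5 genes are called lower, after early reperfusion 0 genes are called and after late reperfusion 1 is called higher. With libraries scaled to cardiomyocyte markers 0 were called lower under lasting closure, beside an all-gene median of 1.07.

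Averaged over the 3 injuries, 1 of the 44 genes rose with F and 1 fell (median 0.01), while of all genes tested 11.3% rose and 15.7% fell. Acsl3 had 0.46 ± 0.11 (edgeR adjusted p = 0.00368) and Etfb -0.74 ± 0.18 (edgeR adjusted p = 0.0055). Scaled to cardiomyocyte markers, 0 were called, and without MI6h_R library 31 there were 8, without MI6h_F library 1 there were 5 and without MI6h_R library 21 there were 4. Ppara itself had a log2 fold change of 0.28 ± 0.40, edgeR adjusted p = 0.644, and was not called. Fibroblast markers moved with F, as 6 of 10 rose (median 0.56). Gene length moved with F as well. Across the 11742 genes, which are not independent, Spearman's rho of the log2 fold change with length was 0.21 for F averaged, 0.31 in MI1h_F against MI1h_R, 0.04 in MI6h_F against MI6h_R and 0.17 in MI24h_F against MI24h. The median change averaged over injuries was -0.14 in the shorter and 0.08 in the longer genes when they were ranked by length and cut into 3 equal sets, the middle set left out. The part of length in the values of F was not tested beyond the removal of its trend. Of the other lipid genes 3 rose and 9 fell with F. Of those that rose, all 3 named here, Scd had the smallest p (0.74 ± 0.21, edgeR adjusted p = 0.014) before the thioesterase gene Acot9 (0.45 ± 0.14, edgeR adjusted p = 0.0251) and Gpam, which starts triglyceride synthesis (0.66 ± 0.22, edgeR adjusted p = 0.0306). The 3 with the smallest p of the 9 that fell were the mitochondrial dehydrogenase gene Hsd17b10 (-0.69 ± 0.13, edgeR adjusted p = 0.000999), the thioesterase gene Acot7 (-0.29 ± 0.08, edgeR adjusted p = 0.00863) and Gpihbp1, which anchors lipoprotein lipase on capillaries (-0.68 ± 0.19, edgeR adjusted p = 0.0122). Scaled to cardiomyocyte markers these 6 lost their call as well. Scd lost it also with the length trend removed (0.60), Gpam on log2(TPM + 1) (0.60), on log2(TPM + 0.1) (0.66) and without any 1 of 10 libraries (0.43 without MI6h_F library 1), and Acot9 without MI24h library 11, MI24h_F library 1 or MI6h_F library 2.

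The effect of F was set against itself between injuries, and edgeR called 0 of the 44 genes in each of the 3 differences. For MI1h minus MI24h the median difference was 0.87, DESeq2 called 3 genes up, and Slc27a1 had 0.93 ± 0.22 (edgeR adjusted p = 0.154) and Pdk2 1.95 ± 0.52 (edgeR adjusted p = 0.169). For MI6h minus MI24h DESeq2 called 0, and the same genes had 0.67 ± 0.22 (edgeR adjusted p = 1) and 1.09 ± 0.52 (edgeR adjusted p = 1). For MI1h minus MI6h DESeq2 called 0, Eci2 had -1.39 ± 0.40 (edgeR adjusted p = 0.264) and Cpt1a 0.84 ± 0.26 (edgeR adjusted p = 0.264). At an unadjusted p under 0.05 there were 16, 1 and 4 genes. Of all genes 0% rose and 0% fell in the first difference, 0% rose and 0% fell in the second and 0% rose and 0.00852% fell in the third.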

How the data were processed

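Bulk RNA sequencing of 21 libraries in 7 groups of 3 was analysed. The authors deposited a table of estimated counts per gene symbol, as whole numbers, and a table of TPM (transcript abundance relative to length and library size). STAR 2.7.3a, RSEM 1.3.1 and the rn7 build are named in the submitters' processing notes, and the annotation and the use of strand are not given in the sources used here. Columns were matched to samples by title, and 0 columns of values were left unused.

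From the deposited estimated counts, 1 model with a term for each group was fitted to all 21 libraries with edgeR 4.0.16 (quasi-likelihood test) in R 4.3.3, after TMM scaling and a filter on low counts that left 11742 genes. P-values were adjusted by the Benjamini-Hochberg method over all of these genes in each of 19 comparisons. Scaled CPM were used to compare samples and the deposited TPM to compare genes. TMM factors were 0.535 to 0.677 in Sham and 0.996 to 1.17 in the others. The script was tested on simulated data.

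The genes and lists were chosen with earlier results of these data known. Values of every library are given for the genes with the highest TPM of each role, those higher than Sham, and those with the smallest p in each comparison among injured groups. Ucp3, Acadvl and Cpt1a are named as well for the promoters, the isoform share or their values, as are genes singled out after their values were seen. Of the other lipid genes, those with the smallest p in each direction of 3 comparisons are named, and 1 of them is not reported here.

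Alternatives were DESeq2 1.42.0, median-of-ratios factors, library size alone, scaling to equal cardiomyocyte markers, limma 3.58.1 on log2(TPM + 1) and log2(TPM + 0.1), no filter, only the groups compared, the replicate number as a block, each library left out, and, added after seeing the data, removal of a trend with gene length. Promoters were read and figures drawn with Python 3.11.15 and matplotlib 3.10.9.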

Additional observations from a re-analysis of the deposited data

Results flagged for a closer look

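For Fabp3, Crat and Cpt1a all libraries with F lay above those without F in one injury and below them in another, and the difference between the 2 effects was tested and did not pass the threshold. Fabp3 was 0.74 ± 0.65 in MI1h_F against MI1h_R and -1.64 ± 0.67 in MI24h_F against MI24h, a difference of 2.38 ± 0.93 (log2, SE, edgeR adjusted p = 0.234). Crat was 0.56 ± 0.33 in MI1h_F against MI1h_R and -0.41 ± 0.33 in MI24h_F against MI24h, a difference of 0.98 ± 0.47 (edgeR adjusted p = 0.300). Cpt1a was 0.36 ± 0.18 in MI1h_F against MI1h_R and -0.48 ± 0.18 in MI6h_F against MI6h_R, a difference of 0.84 ± 0.26 (edgeR adjusted p = 0.264).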

How the results depend on the processing

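With libraries scaled to cardiomyocyte markers, the genes called against Sham numbered 16 in MI1h_R, 19 in MI6h_R, 18 in MI24h, 14 in MI1h_F, 21 in MI6h_F and 24 in MI24h_F, and the all-gene median rose to 2.44, 3.70, 2.96, 2.14, 3.63 and 4.10. Under it log2 changes turned for these genes whose fold change is printed: in MI1h_R against Sham Fabp4 0.26, Etfa 0.31, Hsd17b4 0.90, Pex11a 2.12 and Ucp2 1.31; in MI6h_R Fabp4 0.73, Slc25a20 0.87, Crat 0.81, Hadhb 0.57, Etfa 0.79, Etfb 0.56, Hsd17b4 1.87 and Ucp2 3.07; in MI24h Slc25a20 0.14, Crat 0.22, Hadhb 0.18, Etfa 0.20, Hsd17b4 1.20, Pex11a 2.90, Ucp2 1.78, Cat 0.80 and Scp2 0.21. Other fatty acid genes turned as well, among them Slc27a1 (0.59, 2.04 and 1.65 in MI1h_R, MI6h_R and MI24h), Hadha (0.49, 1.91 and 1.09), Eci2 (1.51, 1.29 and 0.99), Vldlr (1.36 in MI1h_R and 2.43 in MI6h_R), Cpt1a in MI1h_R (1.94), Acadvl (0.68 in MI6h_R and 0.30 in MI24h) and Pdk4 (1.91 in MI6h_R and 0.85 in MI24h). Between injured groups so did Pdk2 -0.11 and Etfb -0.37 in MI1h_F against MI24h_F, Etfb -0.32 in MI1h_F against MI6h_F, Slc27a1 0.53 in MI24h_F against MI24h, and, between effects of F, Slc27a1 -0.53 and Crat -0.44 for MI1h minus MI24h and Slc27a1 -0.56 for MI6h minus MI24h. Pex11a turned in MI1h_R with library size alone (0.47), log2(TPM + 1) (0.39) and log2(TPM + 0.1) (0.56), and in MI24h with the same settings (0.71, 0.65 and 0.90), with the block (0.36) and without MI24h library 21 (0.25) or Sham library 31 (0.06) or 41 (0.14), within a range of -0.31 to 0.25 when 1 library was left out. Ucp2 turned in MI6h_R with these 3 settings (0.20, 0.62 and 0.62), and Ppara for F averaged ran from -0.053 to 0.61, turning without MI6h_F library 1. With library size alone the all-gene median in MI24h against Sham was 0.80 and 8 of the 44 genes rose and 33 fell.

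Counts of called genes moved as follows. DESeq2 called 6 in MI1h_R against MI24h, 5 in MI1h_R against MI6h_R, 10 in MI24h_F against MI24h, 1 in MI1h_F against MI1h_R, 5 for F averaged and 3 for the difference MI1h minus MI24h. Marker scaling gave 0 in MI1h_R and in MI6h_R against MI24h, 12 in MI1h_R against MI6h_R, 16 in MI1h_F against MI6h_F, 9 in MI24h_F against MI24h, 0 in MI6h_F against MI6h_R and 0 for F averaged. In the comparisons with 12, 16 and 9 it also moved the all-gene median, to -1.23, -1.47 and 1.07. The TPM scale with pseudocounts 1 and 0.1 gave 3 and 2 in MI1h_R against MI24h, 0 and 0 in MI6h_R against MI24h, 4 and 4 in MI1h_R against MI6h_R, 2 and 2 in MI6h_F against MI6h_R, and 6 and 5 for F averaged. Only the groups compared gave 0 in MI1h_R and in MI6h_R against MI24h, 12 in MI24h_F against MI24h and 5 for F averaged, where median-of-ratios factors gave 4. Library size alone gave 0 in MI6h_R against MI24h, and removal of the length trend 3 in MI1h_R against MI24h. Leaving out 1 library at a time gave 0 to 4 in MI1h_R against MI24h, 0 to 1 in MI6h_R against MI24h, 0 to 3 in MI1h_R against MI6h_R, 9 to 26 in MI1h_F against MI24h_F, 0 to 4 in MI1h_F against MI6h_F, 0 to 2 in MI24h_F against MI24h, 0 to 3 in MI6h_F against MI6h_R, 2 to 8 for F averaged and 37 to 40 against Sham. With the replicate number as a block 0 were called in MI1h_R and in MI6h_R against MI24h and in MI1h_R against MI6h_R, and 2 in MI1h_F against MI24h_F. Whether the numbers pair samples is not stated in the labels, and 3 libraries a group are too few to settle it. Same-numbered libraries correlated from -0.54 to 0.32 without F, with 4 of 13 pairs over 0.1. There 1 of 12 libraries correlated best with its own number, and 0 of 9 did with F. Across F no paired analysis was possible because no number is shared. Of the named genes' values under alternatives 1543 kept direction and side of the threshold. With direction kept 138 lost and 9 gained a call, and 43 turned direction, whether or not a call was lost. Causes were not tested, and the number of 3 libraries a group limits the precision.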
